A study of Danio rerio with 6 samples.

Results

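The genes described here are 10 members of the Notch signalling pathway of the zebrafish. They are the receptor genes notch1a and notch3, the Delta ligand genes dla, dlb, dlc and dld, the Jagged ligand genes jag1a and jag2b, and the feedback genes nrarpa and nrarpb. A probe set was taken when the platform annotation gave it exactly 1 gene symbol and that symbol was one of these 10. All 10 genes were found, at 20 of the 15502 probe sets tested, among 8793 genes that had a probe set of their own.

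RNA was measured on 6 zebrafish Affymetrix arrays. The 3 EWS-FLI1 arrays came from embryos of the line Tg(HSP:EWS-FLI1), which makes the human Ewing sarcoma fusion protein EWS-FLI1 from a heat shock promoter, and the 3 control arrays from wild-type embryos of the AB strain. At 50% epiboly, early in gastrulation, all embryos, controls included, were held at 39 °C for 30 min and then at 28.5 °C for 2 h before RNA was taken from pools of 40 whole embryos. The transgene is driven by heat and not by a tissue, the level of the fusion itself was not analysed here, and no label names the parents or clutches of a pool, so the p-values speak of pools only. The comparison asks which Notch genes differed between transgenic and wild-type embryos that had both been heated.

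Notch is a receptor that is read between touching cells. A Delta or Jagged ligand on one cell binds Notch on its neighbour, the receptor is cut, and its inner part enters the nucleus, joins the DNA-binding protein Rbpj and turns on target genes, among them the Hairy-related her repressors and the nrarp genes. Nrarp proteins bind the nuclear Notch complex and dampen it, so their transcripts are widely read as a product of Notch activity. In the fish embryo the pathway limits how many neural plate cells become neurons (lateral inhibition), takes part in the segmentation clock of the presomitic mesoderm, and helps to set cell fates at the midline.

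All values are the authors' log2 RMA values, and each difference is the EWS-FLI1 mean minus the control mean (log2). A probe set was called at a Benjamini-Hochberg adjusted p under 0.05 in limma, adjusted over all 15502 probe sets. Arrays of a group correlated at 0.998 (EWS-FLI1) and 0.991 to 0.994 (control) across probe sets, against 0.982 to 0.988 between groups. The median SD over all probe sets was 0.0917 in EWS-FLI1 and 0.135 in control arrays (n = 3 each). As a measure of RNA quality, GAPDH control probe sets (3' end minus 5' end) averaged 1.21 ± 0.1 in EWS-FLI1 and 0.83 ± 0.12 in control arrays (SD, n = 3 each; exact permutation p = 0.1, two-sided, the smallest that 3 against 3 can give), while the acta1 controls differed the other way (-0.32, exact permutation p = 0.1, two-sided). The part of RNA quality in the differences below was not tested. As a measure of background, 44 control probe sets for bacterial and tag sequences gave a 95th percentile of 4.19. A whole embryo was read, so fewer cells that express a gene and less RNA per cell cannot be told apart.

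The Notch genes did not move as a block. Both feedback genes, the receptor gene notch3 and the ligand gene dlc fell in EWS-FLI1 embryos, the ligand gene jag1a rose, and dla, dlb, dld, jag2b and notch1a were not called. Of the 20 probe sets, 7 fell and 1 rose, whereas among all probe sets 6.46% fell, 5.38% rose and 11.8% were called in either direction. The groups did not overlap at 9 of the 20 probe sets, 8 of them lower and 1 higher in EWS-FLI1, against 29.0% of all probe sets. The median difference was -0.18 over the 20 probe sets and -0.33 over the 10 genes, each by its probe set with the highest mean, beside a median of 0.0 over all genes. The 10 genes were chosen with results of these arrays known, so these counts describe them and are no separate evidence.

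Several genes were read by more than 1 probe set, and the called ones were all above background. Group means lay above 4.19 in both groups at 14 probe sets, which held all 8 calls (15.9% of all probe sets with a mean above it were called), and at or under it in both groups at the other 6. The dim ones were 1 of 2 for dlb, 1 of 3 for dlc, 1 of 4 for nrarpa and 3 of 4 for nrarpb. Every gene kept at least 1 probe set above background. A dim probe set that shows no difference says little about its gene.

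**Figure D1:**
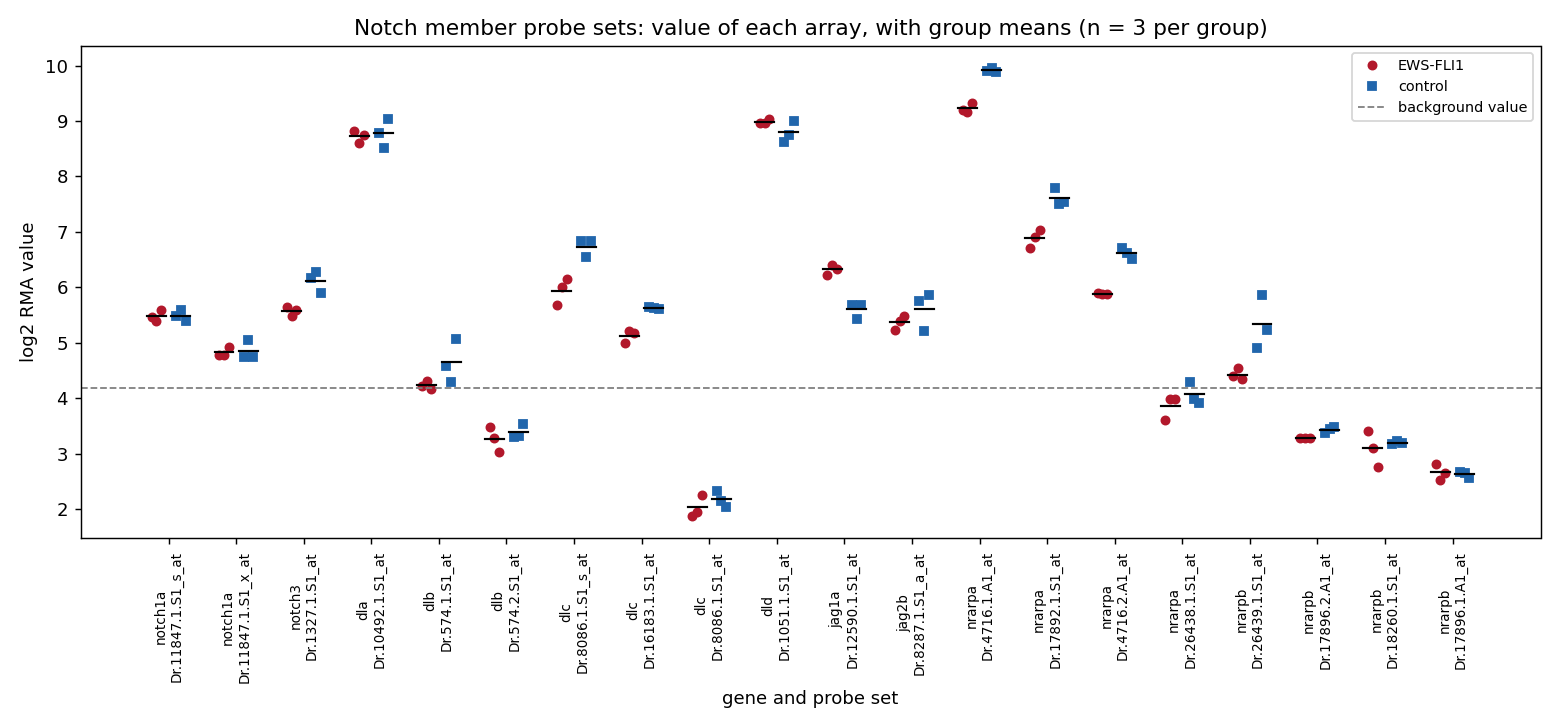
Log2 RMA value (vertical axis) of each of the 20 member probe sets (horizontal axis), with EWS-FLI1 arrays as circles left of control arrays as squares, bars at the group means and a dashed line at the background value of 4.19. The groups stand apart for notch3, for 2 probe sets of dlc, for jag1a, for 3 of nrarpa and for 1 of nrarpb above the line, and overlap for notch1a, dla and dld.

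Among the receptors, notch3 and notch1a behaved differently. notch3, a receptor gene used widely in neural progenitors and in mural cells of vessels, read 5.65, 5.48 and 5.6 in EWS-FLI1 arrays and 6.17, 6.27 and 5.9 in control arrays. Every EWS-FLI1 array lay under every control array, and the mean fell to 5.58 ± 0.09 in EWS-FLI1, against 6.11 ± 0.19 in control embryos (SD, n = 3 each). The difference was -0.54 (SE 0.11), a fold of 0.689, with an adjusted p of 0.0165 in limma. That call was lost when control replicate 1 or any single EWS-FLI1 array was left out (adjusted p up to 0.0751), while the difference stayed between -0.64 and -0.46.

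notch1a, the receptor gene mutated in the somite mutant des, was read by a pair of probe sets made from the same transcript. The brighter one, which carries the suffix _s_at, gave 5.46, 5.4 and 5.6 in EWS-FLI1 arrays and 5.49, 5.59 and 5.4 in control arrays. The groups were interleaved, and the difference of -0.01 had a 95% interval of -0.22 to 0.21 (adjusted p = 0.981 in limma). The dimmer one, with the suffix _x_at, gave -0.01 as well, with an interval of -0.27 to 0.24. A change of notch1a as large as the fall of notch3 lies outside both intervals. The suffixes _s_at and _x_at mark probe sets whose probes can match other transcripts too.

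Of the Delta ligand genes, only dlc was called. dlc, a ligand gene of the segmentation clock whose transcripts cycle in the presomitic mesoderm, read 5.68, 6.0 and 6.15 in EWS-FLI1 arrays and 6.83, 6.54 and 6.83 in control arrays at its brightest probe set, which has the suffix _s_at. The groups were separate, and the difference was -0.79 (SE 0.14), a fold of 0.578, with an adjusted p of 0.00726 in limma. The next in brightness, which lacks that mark, read 4.99, 5.22 and 5.17 in EWS-FLI1 arrays and 5.64, 5.63 and 5.61 in control arrays. It fell as well, by 0.5 (SE 0.09, adjusted p = 0.00854 in limma). Both calls held whichever array was left out (adjusted p up to 0.0303 and 0.0440). The third dlc probe set lay between 1.88 and 2.33 on all arrays, within background, and differed by -0.14 (adjusted p = 0.559). The 2 called probe sets were read on the same arrays and are not independent samples.

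dla and dld, ligand genes of the proneural domains of the neural plate, were not called. dla read 8.82, 8.61 and 8.75 in EWS-FLI1 arrays and 8.79, 8.52 and 9.04 in control arrays, so that the EWS-FLI1 values lay inside the control range. Its difference was -0.06 with a 95% interval of -0.36 to 0.25 (adjusted p = 0.867 in limma). dld, a ligand gene whose loss breaks up the row of somites, read 8.97, 8.96 and 9.03 in EWS-FLI1 arrays and 8.63, 8.75 and 9.0 in control arrays. The EWS-FLI1 arrays sat together near the highest control array, and the difference of 0.19 had an interval of -0.05 to 0.44 (adjusted p = 0.328 in limma). A fall of the size seen for dlc lies outside the interval of each gene.

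dlb, a Delta gene of cells set aside as primary neurons, was read by its brighter probe set at 4.22, 4.32 and 4.16 in EWS-FLI1 arrays and at 4.59, 4.29 and 5.07 in control arrays. The EWS-FLI1 arrays were tight and close to background, and the lowest control array lay among them. The difference of -0.42 had an interval of -0.82 to -0.02 and was not called (adjusted p = 0.184 in limma). That interval includes both differences called for dlc (-0.79 and -0.5). The dimmer probe set gave -0.13 (adjusted p = 0.619).

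jag1a was the member that rose. Jagged ligands bind the same receptors as Delta ligands, and jag1a and jag1b are the fish counterparts of human JAG1, the gene mutated in Alagille syndrome. It read 6.23, 6.41 and 6.33 in EWS-FLI1 arrays and 5.69, 5.43 and 5.69 in control arrays. Every EWS-FLI1 array was above every control array, with means of 6.32 ± 0.09 in EWS-FLI1 and 5.6 ± 0.15 in control embryos (SD, n = 3 each). The difference was 0.72 (SE 0.1), a fold of 1.65, with an adjusted p of 0.00303 in limma, and it was called whichever array was left out (difference 0.63 to 0.77, adjusted p up to 0.0201). By size it ranked 363 among the 15502 differences, counted from the largest rise.

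jag2b, a counterpart of human JAG2, read 5.24, 5.4 and 5.49 in EWS-FLI1 arrays and 5.76, 5.21 and 5.86 in control arrays. Control replicate 2 was the lowest of all 6 arrays and the other 2 controls were the highest. The difference of -0.23 had an interval of -0.61 to 0.14 and was not called (adjusted p = 0.461 in limma). Its probe set carries the suffix _a_at, which marks probes shared by transcripts of 1 gene.

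The feedback genes fell. nrarpa, which encodes an ankyrin-repeat protein that dampens Notch and also acts on Wnt signalling through Lef1, was read by 4 probe sets, and the 3 above background fell by similar amounts. The brightest read 9.19, 9.17 and 9.33 in EWS-FLI1 arrays and 9.91, 9.95 and 9.88 in control arrays. The second read 6.71, 6.91 and 7.03 in EWS-FLI1 arrays and 7.79, 7.5 and 7.54 in control arrays. The third read 5.9, 5.88 and 5.88 in EWS-FLI1 arrays and 6.71, 6.62 and 6.52 in control arrays. In each of the 3 the groups stood clear of each other, with differences of -0.68 (SE 0.08), -0.73 (SE 0.12) and -0.73 (SE 0.09), or folds of 0.623, 0.604 and 0.603.

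These 3 nrarpa probe sets had adjusted p-values of 0.00155, 0.00505 and 0.00115 in limma and were called whichever array was left out (adjusted p up to 0.0294). The spread within groups was small, with SDs of 0.09, 0.16 and 0.01 in EWS-FLI1 and of 0.04, 0.16 and 0.1 in control arrays (n = 3 each). The fourth nrarpa probe set lay within background, with means of 3.86 in EWS-FLI1 and 4.07 in control embryos, and gave -0.21 (adjusted p = 0.438). It was the only nrarpa probe set annotated with a RefSeq transcript.

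nrarpb, the paralogue of nrarpa, had the largest difference among the 20 probe sets and the least even controls. Its brightest probe set read 4.4, 4.54 and 4.34 in EWS-FLI1 arrays, just above background, and 4.91, 5.87 and 5.24 in control arrays. All 3 EWS-FLI1 arrays were lower than each control array, and the controls spread over nearly a whole log2 unit (SD 0.1 in EWS-FLI1 and 0.49 in control, n = 3 each). The difference was -0.91 (SE 0.21), a fold of 0.531, with an adjusted p of 0.0243 in limma. The call was lost when any 1 EWS-FLI1 array was left out (adjusted p up to 0.101), and the difference ranged from -1.13 to -0.65, the smallest without control replicate 2.

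The other 3 nrarpb probe sets were all within background and none was called. The second nrarpb probe set read 3.29 on each EWS-FLI1 array and 3.37, 3.45 and 3.49 on control arrays, a separation with a difference of only -0.15 (adjusted p = 0.318 in limma). The third gave -0.11 and the fourth 0.03. The fall of nrarpb therefore rests on 1 probe set, the only nrarpb probe set annotated with a RefSeq transcript. That of nrarpa rests on 3, none of them so annotated, which were read on the same arrays and are not independent samples.

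**Figure D2:**
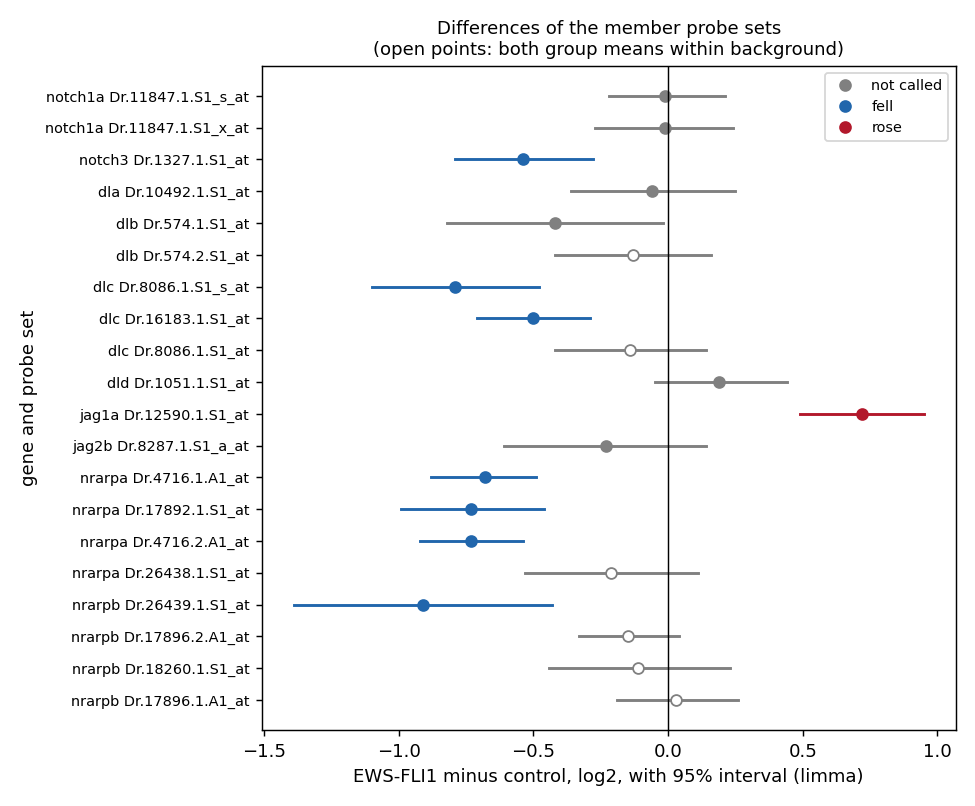
Difference between EWS-FLI1 and control embryos on the log2 scale (horizontal axis) for each member probe set (vertical axis), with limma's 95% intervals, coloured by call, and with open points where both group means were within background. The intervals of the 3 bright nrarpa probe sets cover one another between -0.99 and -0.46, that of jag1a lies wholly above 0, and those of notch1a, dla and dld include 0.

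Whether paired members changed unequally was asked for 5 pairs, as the within-array difference of their log2 values. The level of such a difference depends on the probes and has no meaning of its own. Its change between groups can depend on them too, as the 2 dlc probe sets above background gave -0.79 and -0.5. The probe sets used for dlb and nrarpb lay close to background in EWS-FLI1 arrays (means 4.23 and 4.43). jag1a minus jag2b was 0.99, 1.01 and 0.84 in EWS-FLI1 arrays and -0.07, 0.22 and -0.17 in control arrays, a change of 0.95. notch1a minus notch3 was -0.19, -0.08 and 0.0 in EWS-FLI1 arrays and -0.68, -0.68 and -0.5 in control arrays, a change of 0.53. In both pairs the groups did not overlap, and each gave an exact permutation p of 0.1 (two-sided), the smallest that 3 against 3 arrays allow, or 0.25 after adjustment over the 5 pairs. This design cannot reach 0.05 in such a test. jag1a and notch3 were called above, jag2b and notch1a were not, and the pairs were chosen with results known. The separation of these pairs is therefore no separate evidence.

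The other 3 pairs overlapped between groups. nrarpa minus nrarpb changed by 0.23 (exact permutation p = 0.7, two-sided). Its EWS-FLI1 values, between 4.63 and 4.99, all lay inside the control range of 4.08 to 5.0. dla minus dld changed by -0.25 and dlb minus dlc by 0.37 (exact permutation p = 0.2 for each, two-sided).

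**Figure D3:**
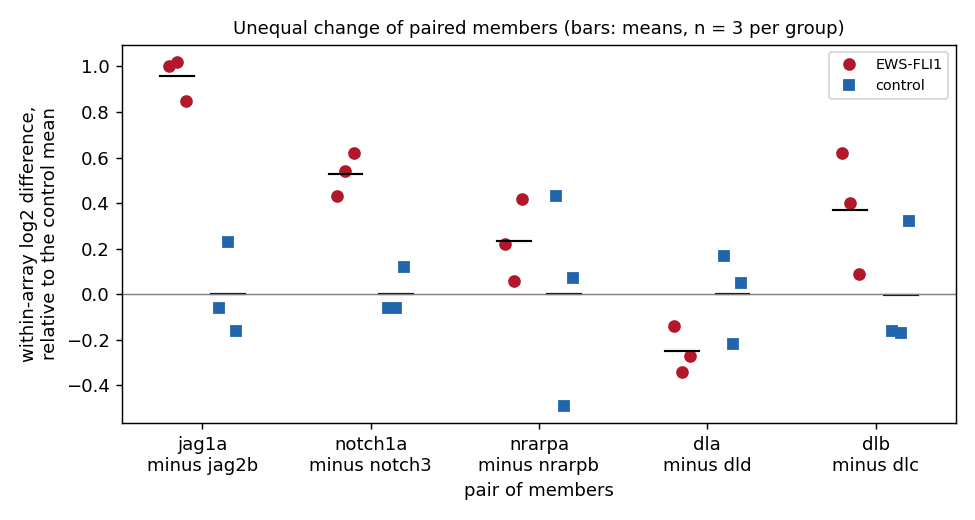
Within-array log2 difference of 5 pairs of members (horizontal axis), shown relative to the control mean of each pair (vertical axis, log2), with EWS-FLI1 arrays as circles left of control arrays as squares and bars at the means (n = 3 each). EWS-FLI1 and control arrays separate for jag1a minus jag2b and for notch1a minus notch3 and mix for the other pairs.

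The control arrays differed among themselves on the ligands. Among the 7 ligand probe sets above background, control replicate 2 was the lowest control at 5 (dla, dlb, the _s_at probe set of dlc, jag1a and jag2b) and the highest at 0, with a mean deviation of -0.2 from the control mean, while control replicate 3 deviated by 0.19. For nrarpb, notch3 and notch1a the order was another one: control replicate 2 was the highest control at the brightest nrarpb probe set, at notch3 and at both notch1a probe sets. The mean deviations of the EWS-FLI1 arrays over the same ligand probe sets were smaller, between -0.08 and 0.05. Without control replicate 2, dlb differed by -0.6 (adjusted p = 0.0250 in limma) and jag2b by -0.43 (adjusted p = 0.0285), so that both would be called, and no other single array did this for either gene. dld, not called in any of these fits, came nearest without control replicate 3 (0.3, adjusted p = 0.0704).

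**Figure D4:**
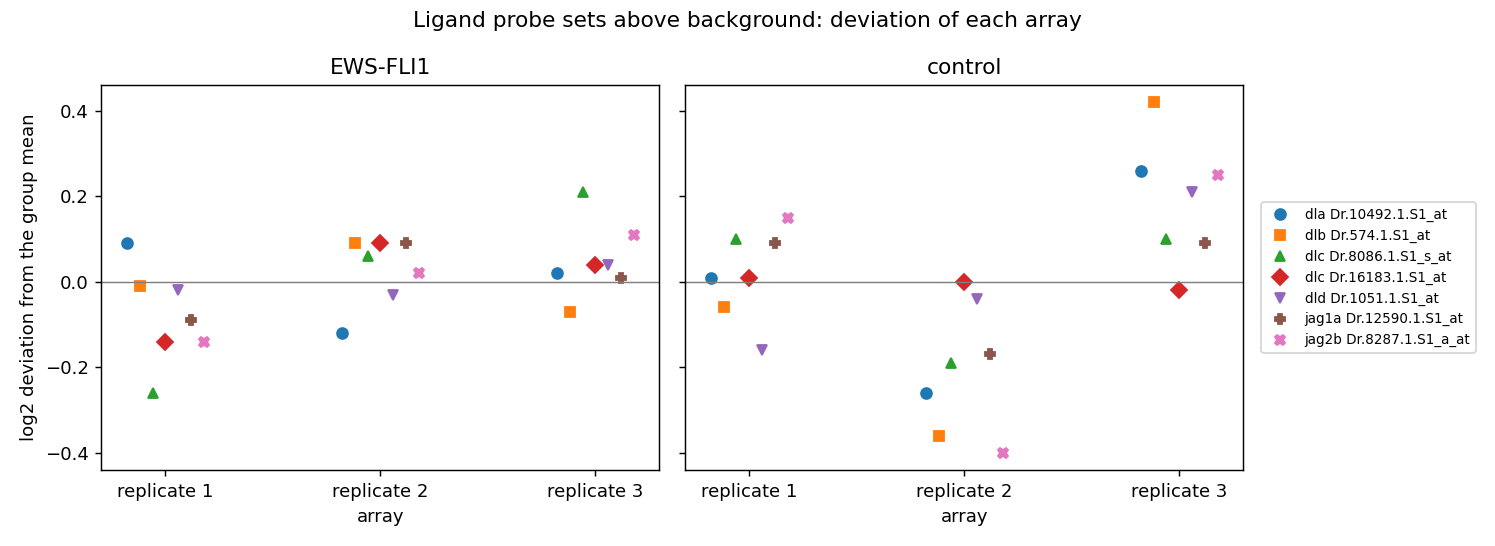
Deviation of each array from its own group mean (vertical axis, log2) for the 7 ligand probe sets above background, by array (horizontal axis), in EWS-FLI1 (left) and control embryos (right). Control replicate 2 is the lowest control for 5 of the 7, with jag2b, dlb and dla farthest down. The EWS-FLI1 arrays spread less than the controls for dla, dlb, dld, jag1a and jag2b and more for both dlc probe sets.

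The remaining receptors and ligands gave no call. Of 9 further receptor and ligand names, 3 had a probe set of their own. notch2, a receptor gene, read 5.85, 5.74 and 5.64 in EWS-FLI1 arrays and 6.45, 6.18 and 5.93 in control arrays at its brightest probe set, with no overlap and a difference of -0.44 (adjusted p = 0.0702 in limma). Its other 2 probe sets gave -0.19 and -0.14 near or within background. notch1b (difference 0.0) and jag1b (0.04), the paralogues of notch1a and jag1a, lay within background in both groups, so these arrays do not show whether they changed.

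The next list holds the machinery that makes, moves and cuts Notch and its ligands, with partners in the nucleus. Of 50 names, 21 genes were measured, and 3 fell, 0 rose and 18 were not called, with a median of -0.08, while 7.12% of all genes fell, 5.65% rose and 12.8% were called. The number that fell was 1 without control replicate 1 or without any single EWS-FLI1 array. The largest fall was in lfng, which encodes the Fringe glycosyltransferase that adds sugar to Notch and shifts its choice between Delta and Jagged ligands. lfng read 8.81, 9.07 and 9.0 in EWS-FLI1 arrays and 9.72, 9.51 and 9.71 in control arrays, with no overlap and a difference of -0.69 (SE 0.1, adjusted p = 0.00386 in limma). The other 2 that fell were the Groucho-family corepressor genes tle3b (-0.55, adjusted p = 0.0266) and tle2a (-0.43, adjusted p = 0.0434), partners of many repressors besides those of Notch.

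Genes of several core steps were not called. mib1, the ubiquitin ligase that drives endocytosis of Delta in the signalling cell and is mutated in mind bomb fish, differed by -0.12 with an interval of -0.33 to 0.09. adam10a and adam10b encode proteases of the first ligand-induced cut. adam10a differed by -0.05, and adam10b by -0.17 (adjusted p = 0.323 in limma), with no overlap between its groups. The differences of the γ-secretase subunit genes psenen and aph1b were -0.11 and -0.01. crebbpa, a coactivator gene, was the highest at 0.17 (adjusted p = 0.244 in limma), with no overlap between its groups either. Among all probe sets 29.0% had no overlap. rbpja and rbpjb had no probe set named for them alone and were not analysed here.

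Transcripts of most measured Hairy-related repressors, the best known Notch targets, fell. Of 15 measured her and hey genes, 12 fell, 0 rose and 3 were not called, with a median of -0.73. Over all genes, 7.12% fell and 12.8% were called. The largest differences were in her3 (-1.16), her2 (-0.96), her15.2 (-0.93) and her6 (-0.93). Several her genes, her3 among them, are not driven by Notch in the early fish embryo, and the list was known from these data to hold fallen genes. The count of fallen genes was 6 without EWS-FLI1 replicate 1 and 7 without EWS-FLI1 replicate 2. Within background in both groups were her1 and her4.2, which fell, and her4.5 and heyl, which were not called. The other gene not called, hey2, was higher in EWS-FLI1 embryos by 0.39 (adjusted p = 0.107 in limma). Its mean was 4.26 in EWS-FLI1 arrays and 3.87, within background, in control arrays.

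Genes of early neurons, where lateral inhibition acts, moved both ways. Of 19 measured genes, 4 fell (olig2 -0.99, isl1a -0.98, ascl1b -0.84, isl2a -0.7), 2 rose and 13 were not called, with a median of -0.23. Among all genes 7.12% fell and 5.65% rose. Within background in both groups were 9 of the 19, where the lack of a call says little about the gene. The 2 that rose were the proneural factor genes neurog1 and neurod1. neurog1, which precedes Delta expression in primary neurons, read 10.02, 9.43 and 9.38 in EWS-FLI1 arrays and 8.56, 8.34 and 9.02 in control arrays. Its difference was 0.97 (adjusted p = 0.0188 in limma). neurod1 differed by 0.76 from means within background in both groups. Proneural factor genes did not all rise: ascl1b, named above, fell, and its paralogue ascl1a differed by -0.4 (adjusted p = 0.138 in limma). elavl3, a marker of postmitotic neurons, differed by -0.13 (adjusted p = 0.473). Without control replicate 2 the fallen genes of this list numbered 9. At adjusted p under 0.01 neurog1 was not called. Without control replicate 1 or without EWS-FLI1 replicate 1 only 1 gene of the list rose.

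Genes of the presomitic mesoderm and the first somites fell at 11 of 15, with 1 that rose and 3 not called, and a median of -0.64. Among all genes 7.12% fell and 5.65% rose. tbx16l (-0.97), tbx6 (-0.84), foxc1a (-0.84) and mespba (-0.79), transcription factor genes of this tissue, led the list, and tbxta, the Brachyury gene of notochord and tailbud, rose by 0.54. Without EWS-FLI1 replicate 1 or 3 the number that fell was 7.

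**Figure D5:**
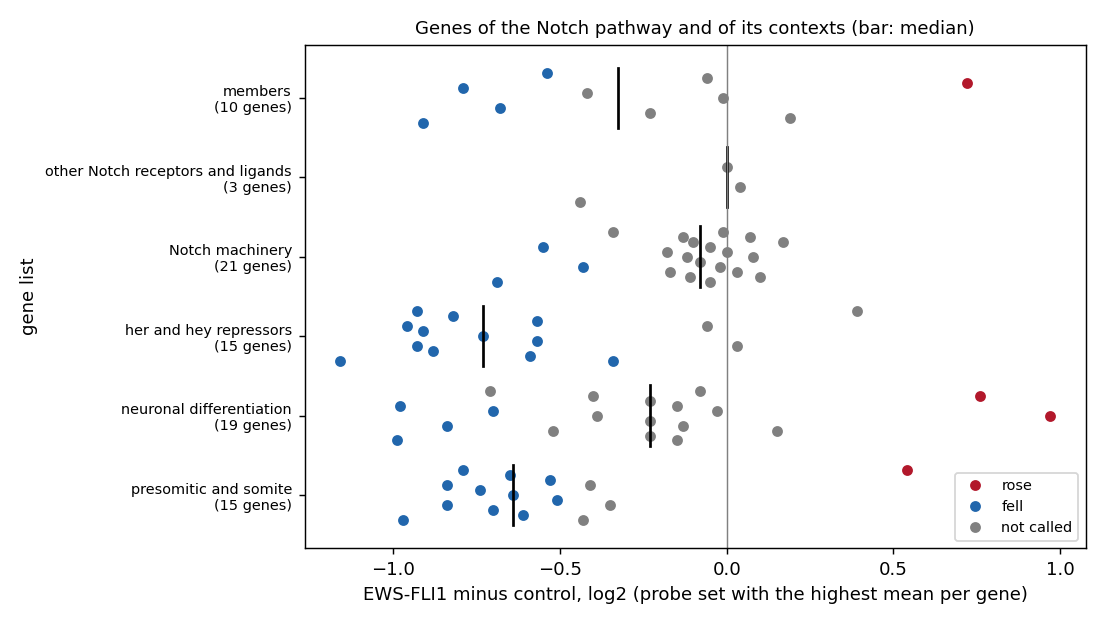
Difference between EWS-FLI1 and control embryos on the log2 scale (horizontal axis) for each gene of 6 lists (vertical axis), by the probe set with the highest mean, coloured by call, with a bar at the median. The machinery genes run from -0.69 (lfng) to 0.17 with a median of -0.08, the her and hey genes have a median of -0.73, and jag1a is the only member above 0 that was called.

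Markers of the germ layers were read on the same arrays, where 7.12% of all genes fell and 5.65% rose. The arrays were from whole embryos, and apart from mixl1 every ectodermal, mesodermal and endodermal marker of these lists averaged above background in both groups. The mean level over 6 neural plate markers (sox2, sox3, sox19a, sox19b, otx2a, otx2b) lay between 7.88 and 8.13 in EWS-FLI1 arrays and between 8.59 and 8.84 in control arrays, and 5 of the 6 fell. Over 6 markers of mesoderm and organizer it lay between 7.41 and 7.53 in EWS-FLI1 arrays and between 7.75 and 7.97 in control arrays, with 3 that fell and 1 that rose. Over 6 markers of non-neural ectoderm it lay between 7.9 and 8.2 in EWS-FLI1 arrays and between 8.7 and 9.04 in control arrays, with 4 that fell.

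Markers of endoderm and of the extraembryonic layers were counted in the same way, beside the same shares of all genes. The 4 endoderm markers gave no call, and their mean level lay between 7.71 and 7.94 in EWS-FLI1 arrays and between 7.79 and 8.28 in control arrays. All of them were lower in EWS-FLI1 embryos, by a median of -0.29 (range -0.43 to -0.03). foxa2 and gata5 had no overlap between groups, as had 29.0% of all probe sets. Of 8 markers of the enveloping layer 1 fell (anxa1c, -0.58), and their mean level lay between 9.46 and 9.61 in EWS-FLI1 arrays and between 9.62 and 9.7 in control arrays. Of 9 measured markers of the yolk syncytial layer, apoa4b.1 fell (-1.1) and slc40a1 rose (2.69), with a median of -0.2. The mean level of the list overlapped between groups (7.55 to 7.61 in EWS-FLI1 and 7.36 to 7.68 in control arrays). That level includes slc40a1, which averaged 6.39 in EWS-FLI1 and 3.7, within background, in control arrays. The overlap therefore says little about the other markers of this layer. mxtx2, cldne, agr1 and mixl1 were within background in both groups. The part of these tissues in the differences of the Notch genes was not tested.

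The genes most like a member across the 6 arrays were taken for the member with the largest difference of each role, by Pearson's r over single-gene probe sets. For jag1a they were naxd, dmrt1 and wdr1 (r = 0.997, 0.996 and 0.994), with differences of 0.37, 1.0 and 0.9. For dlc they were pcp4l1, cdc25b and ch25hl1.1 (r = 0.999, 0.998 and 0.997), with differences of -0.45, -0.21 and -0.93. For notch3 they were fgf24, pus3 and reep2 (r = 0.993, 0.989 and 0.987), with differences of -1.14, -0.58 and -0.22. For nrarpb they were znfl2a, slc1a4 and rps6kb1b (r = 0.995, 0.989 and 0.988), with differences of -0.41, -0.27 and -0.36. Of these, cdc25b, reep2, znfl2a, slc1a4 and rps6kb1b were not called, and slc1a4 was within background in both groups. With 6 arrays in 2 groups, high values were not confined to the named genes. Among the 10795 probe sets, those of the member's own gene were left out. In the rest, r was at least 0.95 at 144 for jag1a, 239 for dlc, 75 for notch3 and 60 for nrarpb. These correlations describe these arrays and are given without a test.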

How the data were processed

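The deposited values are log2 RMA values by the authors, 1 per probe set and array, from 3 EWS-FLI1 and 3 control arrays. The submitters' processing notes name RMA, affy and R 2.2.0. No source states the log base, and base 2 was taken from the range, 1.58 to 13.46. RMA equalises array distributions and compresses small differences of dim probe sets. Arrays have no read depth, and their number limits the precision.

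Of 15617 probe sets, 115 controls were left out. Of the 15502 tested, 10795 had 1 gene symbol, 135 several and 4572 none, and symbols were updated by Entrez identifier (10711 matched, 1 changed; RefSeq, GRCz12tu). All were fitted together with limma 3.58.1 in R 4.3.3 (lmFit, eBayes, two-sided, Benjamini-Hochberg), after a check on simulated data. Lists were counted by each gene's probe set with the highest mean. Plots used matplotlib 3.10.9 in Python 3.11.15.

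The members, lists and tests were chosen with earlier results of these data known. The naming rule took every member probe set, up to 4 called genes per list by size, and a few core genes. Outside it, adam10b, psenen, aph1b, crebbpa, her1, her4.2, her4.5, hey2, heyl, ascl1a, isl2a, neurod1, elavl3, tbxta and the markers were named after their values were seen. Same-numbered replicates were not paired (correlations of deviations -0.0822, -0.0992 and -0.0761). Alternatives were a replicate block, a filter on dim probe sets, 2 scalings, a trended prior, array weights, adjusted p under 0.01 and leaving out each array. No background correction was added to the authors' RMA, and slide and sequences were not used here.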

Additional observations from a re-analysis of the deposited data

How the results depend on the processing

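The rise of jag1a and the falls of dlc (2 probe sets) and nrarpa (3) were called in every setting tried. Those of notch3 and nrarpb were not called at adjusted p under 0.01 (0.0165 and 0.0243) or without single arrays, as given above. With the replicate block, which the data did not bear out as a pairing, no member's call changed (nrarpb adjusted p = 0.0121, notch3 0.0332), and 1 further receptor, notch2, was called as lower, as it was with array weights. At adjusted p under 0.01, 415 probe sets rose and 411 fell in the whole table, machinery genes that fell numbered 1, her and hey genes 6 and presomitic genes 6, while 1 neuronal and 0 presomitic genes rose. Without dim probe sets 1 neuronal gene rose. Counted by 1 probe set per gene, a setting added after seeing the data, 4 members fell. The brighter notch1a probe set gave 0.02 after quantile normalization again.

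Leaving out each array in turn gave 450 to 1023 raised and 433 to 1286 fallen probe sets, both counts lowest without EWS-FLI1 replicate 1 and highest without control replicate 2. Counts that fell ranged from 5 to 9 for member probe sets, from 0 to 1 for other receptors and ligands, from 1 to 4 for machinery, from 6 to 12 for her and hey genes, from 4 to 9 for neuronal and from 7 to 12 for presomitic genes. Counts that rose ranged from 0 to 1 for her and hey and from 1 to 2 for neuronal genes. Signs changed for uncalled differences near 0: notch1a (-0.06 to 0.04 and -0.07 to 0.09), dla (-0.19 to 0.07), the 2 nrarpb probe sets with the lowest means (-0.26 to 0.06 and -0.04 to 0.1), nrarpa minus nrarpb (-0.02 to 0.44) and the mean RNA quality value (-0.06 to 0.13). Each of these fits had fewer arrays, and why the counts and signs shifted was not tested.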

Other observations

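In the gene order of the RefSeq assembly GRCz12tu, 7 protein-coding genes that lie directly beside a member were measured by a probe set of their own with a name. dlb lies between zgc:153990, which fell by 0.51 (adjusted p = 0.0268 in limma), and ppp1r14aa, which rose by 0.55 (adjusted p = 0.0110). ambp, beside nrarpa, fell by 0.40 (adjusted p = 0.0315). chp2 (-0.13) and timm50 (-0.19) beside dlc, esr2a (0.07) beside jag2b and jak2b (0.26) beside nrarpb were not called. Among all genes, 7.12% fell, 5.65% rose and 12.8% were called. Whether the position beside a member has a part in these differences was not tested. No gene directly beside jag1a had a named probe set, and whether its surroundings changed was not analysed here.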
